A study of Mus musculus with 7 samples.

Results

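The miR-23/27/24 family of miRNAs was followed in Ago2-bound small RNA from mouse plasma. Members were taken by name, as those of 9 mature arms from the 2 family clusters (miR-23a-3p, miR-23b-3p, miR-27a-3p, miR-27b-3p, miR-27a-5p, miR-27b-5p, miR-24-3p, miR-24-1-5p and miR-24-2-5p) that had a row in the deposited counts. The list holds no 5p arm of miR-23a or miR-23b. Of these names, 8 had a row, out of 640 miRNAs counted, and miR-24-1-5p is not analysed here. The study sequenced 7 plasma libraries, each from a pool of 10 mice of the strain labelled c57 (C57BL/6JOlaHsd in the study's methods). The mice were adult males. SE mice, in which status epilepticus was induced, received kainic acid into the amygdala and then midazolam or lorazepam, and control mice received PBS into the amygdala. Plasma was collected 4, 8 and 24 h after injection in both groups, each time as 1 control and 1 SE pool, and from 1 further SE pool after 2 weeks. The 2-week SE library was set against control 24 h, as it had no control of its own time, so the 24 h and 2-week comparisons share a control. Since each condition was 1 library, differences between SE and control had no replicate check, and time after injection cannot be told apart from differences between pools.

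miRNAs act by guiding Argonaute proteins such as Ago2 to partly complementary sites in messenger RNAs, with most of the pairing in the seed near the 5′ end. A hairpin precursor has a 5p and a 3p arm, and usually one of them is loaded and kept while the other is degraded. The miR-23, miR-27 and miR-24 hairpins lie side by side in a pair of paralogous clusters, each of which can be transcribed as one precursor, and they are known for roles in endothelial cells and angiogenesis, in blood cells and in lipid metabolism. In the nervous system members of the family have been linked to neuronal survival and to glia, and the study's own annotation assigns miR-27b-3p to oligodendrocytes, miR-23a-3p and miR-27a-3p to microglia and miR-23b-3p to neurons.

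On GRCm38 the a cluster lies on the plus strand of chromosome 8, with Mir23a at 84208518 to 84208592, Mir27a at 84208672 to 84208758 and Mir24-2 at 84208815 to 84208921, a span of 404 bases. Of these hairpins Mir24-2 overlaps an exon of the lincRNA Gm26532 in GENCODE M21, and Mir23a and Mir27a overlap no other gene. The b cluster lies on the plus strand of chromosome 13, with Mir23b at 63300484 to 63300557, Mir27b at 63300712 to 63300784 and Mir24-1 at 63301208 to 63301275, a span of 792 bases. All 3 lie within the gene 2010111I01Rik, Mir23b in an intron and Mir27b and Mir24-1 over annotated exons, and on the opposite strand they lie in introns of Fancc.

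Mature sequences from RefSeq (GRCm38.p6) were found for 7 of the 8 members, all but miR-23b-3p. They are shown because the family's paralogs are so alike that read counting has to tell them apart by very few bases. Capitals mark the seed, bases 2 to 8 counted from the 5′ end.
miR-27b-3p: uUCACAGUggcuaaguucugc
miR-27a-3p: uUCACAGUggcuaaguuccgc
miR-23a-3p: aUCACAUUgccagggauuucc
miR-24-3p: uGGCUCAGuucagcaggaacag
miR-24-2-5p: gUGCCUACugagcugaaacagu
miR-27a-5p: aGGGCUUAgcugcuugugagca
miR-27b-5p: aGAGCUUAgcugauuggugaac
The mature miR-27b-3p (chr13:63300760-63300780) and miR-27a-3p (chr8:84208727-84208747) are both 21 nucleotides long, share their seed and differ at 1 base, C19U from miR-27a-3p to miR-27b-3p. That seed was found in 2 RefSeq mature miRNAs, both of them members. The alignment behind the counts tolerated up to 2 mismatches. A read with 1 error can therefore match either, and the split of reads between miR-27a-3p and miR-27b-3p is uncertain to that extent. The 5p arms are less alike, with 8 differences over 22 bases between miR-27a-5p and miR-27b-5p, including 1 in the seed. The mature miR-24-3p is encoded with the same sequence in both clusters, so its counts cannot be divided between Mir24-1 and Mir24-2, whereas miR-24-2-5p (chr8:84208839-84208860) comes from the a cluster alone.

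Libraries ranged in total from 2043220 counts (control 4 h) to 5405357 (SE 4 h). The low counts of a library clustered at one size (its low-count value), which was 102 for control 4 h but 33.1 to 60.2 for the other 6 libraries. Control 4 h stood apart in this, so results that rest on it are also given against other controls. Levels are given as CPM, a miRNA's count scaled to a common library size, after adjusting that size with TMM factors from edgeR. A miRNA was tested in a pair of libraries if it reached 50 CPM in either. A call needed a change of at least 1.5-fold and an unadjusted p under 0.05 in edgeR's exact test, for which the BCV, the assumed variation between pools, was fixed at 0.1. This test compares the reads of 2 libraries and not the 2 conditions, and its p-values are not given.

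Together the members held 0.575% of all counts in SE 24 h, the smallest share (0.567 to 0.582, 95% Wilson interval), and 1.44% in SE 8 h, the largest (1.43 to 1.45). The control libraries lay close together, at 0.815% at 4 h, 0.885% at 8 h and 0.861% at 24 h, and SE 4 h and SE 2 weeks held 1.21% and 1.04%. These intervals cover counting error only. Between 77.2% and 88.2% of the family's counts in a library came from miR-27b-3p alone. The shares also depend on 1 other miRNA, miR-486b-5p, which held from 62.5% (SE 8 h) to 76.1% (SE 24 h) of all counts. With miR-486b-5p left out of the total, the controls lay further apart, with miR-27b-3p at 29613, 22351 and 20130 CPM at 4, 8 and 24 h. On that scale the SE libraries had 32779, 32262, 19178 and 22709 CPM in order of time.

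miR-27b-3p, the guide arm of the b cluster's miR-27 and the most abundant member, was higher in the SE libraries at 4 h and at 8 h. Its counts were 14485, 25657 and 22675 in the 4, 8 and 24 h controls, and 57540, 38265, 17054 and 21208 in the SE libraries of 4, 8 and 24 h and 2 weeks. These correspond to levels of 8313, 5949.9 and 5746 CPM in the controls and of 13514, 10507, 6081 and 6869.7 CPM in SE. On this scale SE 4 h and SE 8 h lay above all 3 control libraries, while SE 24 h and SE 2 weeks lay within the control range. It ranked between 9th and 18th among the miRNAs of each library, with 0.709% of the counts of control 4 h (95% Wilson interval 0.698 to 0.721) and 1.06% of those of SE 4 h (1.06 to 1.07).

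On the TMM scale the log2 fold change of miR-27b-3p (SE over control) was 0.70 at 4 h and 0.82 at 8 h, both called higher, and 0.08 at 24 h and 0.26 at 2 weeks, neither called. At 4 h, 54 of the 189 miRNAs tested had a larger log2 fold change, and at 8 h 43 of 154. The call at 4 h was lost with DESeq2's size factors (0.57) and with TMM factors from the 2 libraries alone (0.54), where the median of all miRNAs tested was -0.19 and -0.22, and the call at 8 h was lost when SE 8 h was set against control 4 h (0.34). SE 4 h was called higher against control 8 h (1.18) and control 24 h (1.23) too. Scaled by library size alone, SE 24 h (4586 CPM) lay below and SE 2 weeks (8346 CPM) above all 3 controls (6644 to 7269 CPM), and the 24 h log2 fold change was -0.53, where the median of all miRNAs tested was -0.58.

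**Figure D1:**
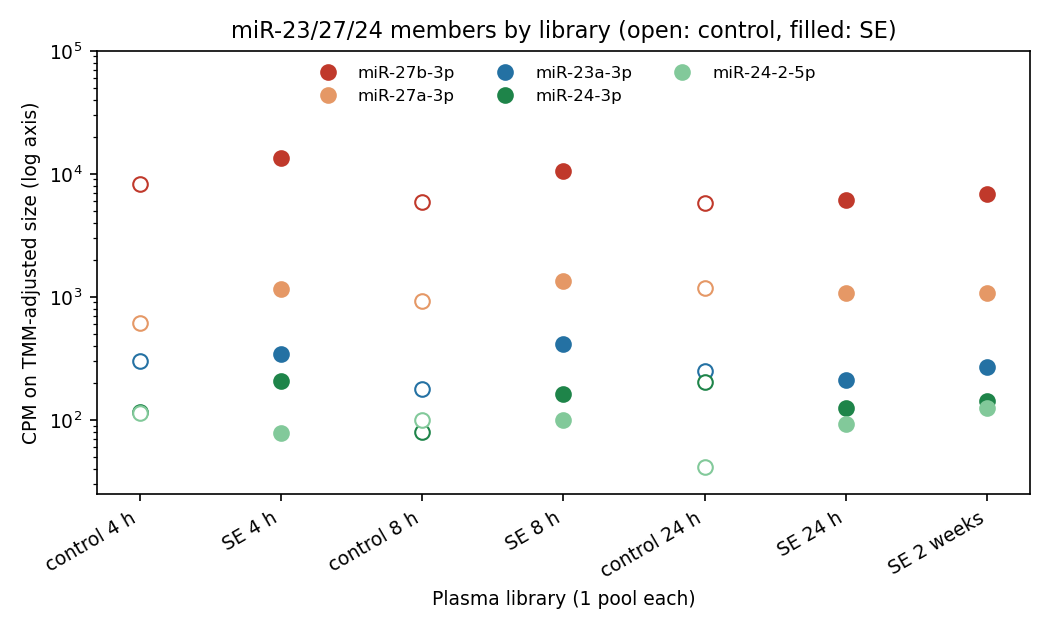
Levels of the 5 members tested in every comparison, in CPM on TMM-adjusted library size (log axis), in each of the 7 plasma libraries; open points are control and filled points SE libraries, and each point is 1 pool of 10 mice, with no error bar. miR-27b-3p stands well above the others in every library and is highest in SE 4 h (13514 CPM) and SE 8 h (10507 CPM).

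miR-27a-3p, which shares the seed of miR-27b-3p, was less abundant and followed another course. Its levels were 609, 923 and 1175 CPM in the 4, 8 and 24 h controls, and 1148, 1337, 1073 and 1079 CPM in the SE libraries of 4, 8 and 24 h and 2 weeks. Control 4 h was the lowest of all 7 libraries and SE 8 h the highest, and the other 5 lay between 923 and 1175 CPM. It was called higher at 4 h (log2 fold change 0.91) and not at 8 h (0.54), 24 h (-0.13) or 2 weeks (-0.12). The call at 4 h rested on control 4 h. Against control 8 h and control 24 h the log2 fold change of SE 4 h was 0.32 and -0.03, and neither was called. SE 8 h was called higher against control 4 h (1.13), and SE 24 h was called lower with library size alone (-0.75, where the median of all miRNAs tested was -0.58).

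miR-23a-3p, the guide arm of the first hairpin of the a cluster, had 299.6, 177 and 248 CPM in the controls and 345, 412, 213 and 268 CPM in the SE libraries of 4, 8 and 24 h and 2 weeks. On the TMM scale SE 4 h and SE 8 h lay above all 3 controls and the later SE libraries within their range, as for miR-27b-3p, but of those SE libraries SE 8 h alone stayed above all controls on the next 2 scales. By library size alone SE 4 h (272 CPM) lay within the controls (216 to 287 CPM), SE 24 h (160.3 CPM) below and SE 2 weeks (325 CPM) above them. With miR-486b-5p left out of the library total, SE 4 h (837 CPM) lay within the controls (666 to 1067 CPM). Its log2 fold change was 1.22 at 8 h, which was called, and 0.20, -0.22 and 0.11 at 4 h, 24 h and 2 weeks, which were not. Against control 4 h the log2 fold change of SE 8 h was 0.46 and the call was lost. Against control 8 h, SE 4 h (0.96) and SE 2 weeks (0.60) were called higher, and with library size alone SE 24 h was called lower (-0.84). Of 137 miRNAs that reached 50 CPM in 3 or more of the 6 libraries up to 24 h, 24.1% lay above all controls in SE 4 h and SE 8 h alike on the TMM scale, and so did 2 of the 5 members among them. On the TMM scale the sum of the muscle miRNAs miR-133a-3p and miR-133b-3p lay above all controls in the same 2 libraries, at 1232 and 1562 CPM against 92.2 to 945 CPM. By library size alone this sum was lower in SE 4 h than in control 8 h. The part of the muscle miRNAs in these differences was not tested.

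miR-24-3p, the arm shared by both clusters, was called in SE in opposite directions at different times. Its levels were 116, 80.2 and 202 CPM in the 4, 8 and 24 h controls, and 206, 163, 125 and 143 CPM in the SE libraries of 4, 8 and 24 h and 2 weeks. The control libraries alone spanned 2.52-fold, nearly the whole range of the 7 libraries, and the SE and control levels overlapped. Its log2 fold change was 0.82 at 4 h and 1.02 at 8 h, both called higher, -0.69 at 24 h, called lower, and -0.50 at 2 weeks, not called. Against control 24 h neither SE 4 h (0.03) nor SE 8 h (-0.31) was called, and against control 4 h SE 8 h was not called (0.49). Against control 8 h, SE 4 h stayed called (1.36) and SE 24 h was called higher (0.64). In control 4 h its 203 counts were 1.99 times the low-count value.

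miR-24-2-5p, the opposite arm of the a cluster's miR-24 hairpin, differed mainly in control 24 h. It had 114, 99.7 and 41.8 CPM in the controls, and 78.0, 99.4, 92.0 and 125 CPM in the SE libraries of 4, 8 and 24 h and 2 weeks. Control 24 h was the lowest of the 7 libraries and the only one under 50 CPM, and the remaining 6 overlapped. It was called higher at 24 h (log2 fold change 1.14) and at 2 weeks (1.58), both against control 24 h, and not at 4 h (-0.54) or 8 h (0.00). At 24 h and 2 weeks it was tested only because the SE library reached 50 CPM, so the direction was fixed by the filter and nothing is read from these calls. The 24 h call was lost with library size alone (0.52), and at 4 h it was called lower with library size alone (-0.66), DESeq2's size factors (-0.68) and 2-library TMM (-0.70). Set against control 4 h and control 8 h in place of control 24 h, the log2 fold change of SE 2 weeks was 0.13 and 0.32, and that of SE 24 h -0.30 and -0.12, and none was called.

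Over the members tested, 3 of 6 were called higher at 4 h (miR-27a-3p, miR-24-3p and miR-27b-3p), where 32.3% of all miRNAs tested were higher. The 1 called lower at 4 h was miR-27b-5p, and 34.9% of all tested were lower. At 8 h, 3 of 5 were called higher (miR-23a-3p, miR-24-3p and miR-27b-3p) and 0 lower, against 35.1% and 14.9% of all tested. At 24 h, 1 of 5 was higher (miR-24-2-5p) and 1 lower (miR-24-3p), against 24.8% and 19.9%. At 2 weeks, 1 of 5 was higher (miR-24-2-5p) and 0 lower, against 18.6% and 13.1%.

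The calls of miR-27b-5p and miR-24-2-5p came from miRNAs that passed the filter only through their higher library. Where both libraries had to reach 50 CPM, 3 of 5 members were higher and 0 lower at 4 h, against 32.2% and 18.2% of all tested. At 8 h 3 of 5 were higher and 0 lower, against 23.5% and 12.6%. For 24 h these were 0 and 1 of 4 (miR-24-3p lower), against 18.8% and 12.5%, and for 2 weeks 0 and 0 of 4, against 8.55% and 9.4%. The median log2 fold change of these members was 0.70, 0.82, -0.18 and -0.01 in order of time, and that of all miRNAs tested in this way was 0.21, 0.03, 0.04 and -0.04.

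Control libraries also differed from each other. By the same rule 3 of 6 members were called between control 8 h and control 4 h, 4 of 6 between control 24 h and control 4 h, and 2 of 5 between control 24 h and control 8 h, where 59.3%, 69.6% and 45.4% of all miRNAs tested were called. With 50 CPM required in both libraries these were 2 of 5, 2 of 4 and 1 of 4 members, against 40.2%, 53.1% and 36.3%. miR-27b-3p was not called in any of these 3 pairs, with log2 differences (later minus earlier control) of -0.48, -0.53 and -0.05. miR-24-3p differed by up to 1.33 between controls, more than in any of its 4 comparisons of SE with the control named above for that time.

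**Figure D2:**
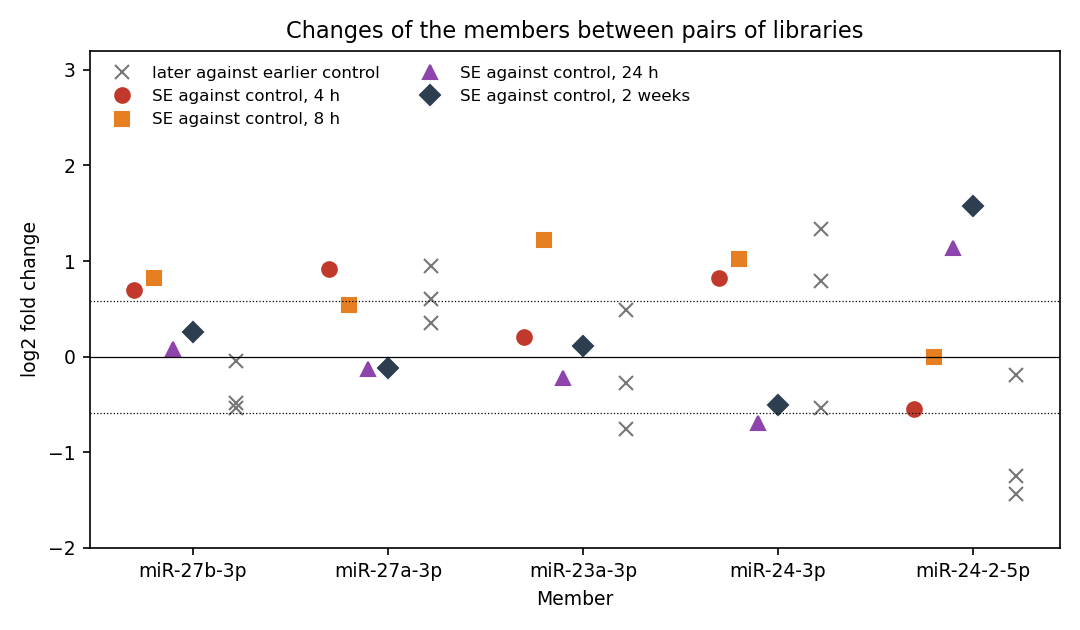
log2 fold changes of 5 members between pairs of libraries (vertical axis); filled symbols are SE over control by time-point (2 weeks against control 24 h), crosses are the 3 differences of a later against an earlier control library, and dotted lines mark 1.5-fold. Each symbol compares 2 libraries and has no error bar. miR-27b-3p is past 1.5-fold at 4 h and 8 h and in no pair of controls.

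The 3 SE libraries of 4 h, 8 h and 24 h were also tested as a group against their 3 controls, by quasi-likelihood in edgeR with p adjusted after Benjamini and Hochberg. These are different time-points and not replicates, so the spread includes time. The log2 fold change of miR-27b-3p was 0.59 ± 0.33 (SE of the estimate, n = 3 libraries a side), with an adjusted p of 0.56 in this edgeR test. On the TMM scale it was higher in SE at 3 of 3 time-points, but at 24 h by only 0.08 on the log2 scale. That 24 h sign turned with library size alone (-0.53) and against the 3 controls summed (-0.10). The mean level of miR-27b-3p was 6669.6 CPM ± 1427 (SD, n = 3) in control and 10034 CPM ± 3739 (SD, n = 3) in SE. The other 4 members tested had log2 fold changes between 0.08 (miR-24-2-5p) and 0.42 (miR-23a-3p), with edgeR adjusted p between 0.75 and 0.96. Of the 137 miRNAs tested, 0 (0.0%) passed an adjusted p of 0.05, 17 had an unadjusted p under 0.05, none of them a member, and DESeq2's Wald test passed 3, none of them a member.

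The balance between the paralogs was read as a ratio of counts within a library, which does not depend on scaling. For each read of miR-27a-3p the controls held 13.6 reads of miR-27b-3p at 4 h, 6.45 at 8 h and 4.89 at 24 h. In SE the ratio was 11.8, then 7.85, then 5.67 over the same times, and 6.36 after 2 weeks. It was thus highest at 4 h and lowest at 24 h in both groups, apart from the 2-week SE library, which lay between the SE values of 8 h and 24 h. Between 4 h and 24 h the ratio differed by 1.48 on the log2 scale in control and by 1.05 in SE. SE minus control of the same time was -0.21 at 4 h, 0.29 at 8 h and 0.21 at 24 h. No test was made of time, with 1 library of each group at each time-point.

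Counts of the b cluster (miR-23b-3p, miR-27b-3p and miR-27b-5p) over those of the a cluster (miR-23a-3p, miR-27a-3p, miR-27a-5p and miR-24-2-5p), leaving out the shared miR-24-3p, gave ratios of 7.89, 4.89 and 3.85 in the 4, 8 and 24 h controls. In SE they were 8.50, 5.69 and 4.31 at the same times and 4.63 after 2 weeks. The SE ratio was the higher at each of the 3 times shared with control, by 0.11 to 0.22 on the log2 scale. These ratios are mostly those of miR-27b-3p to miR-27a-3p, the most abundant member of each cluster.

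**Figure D3:**
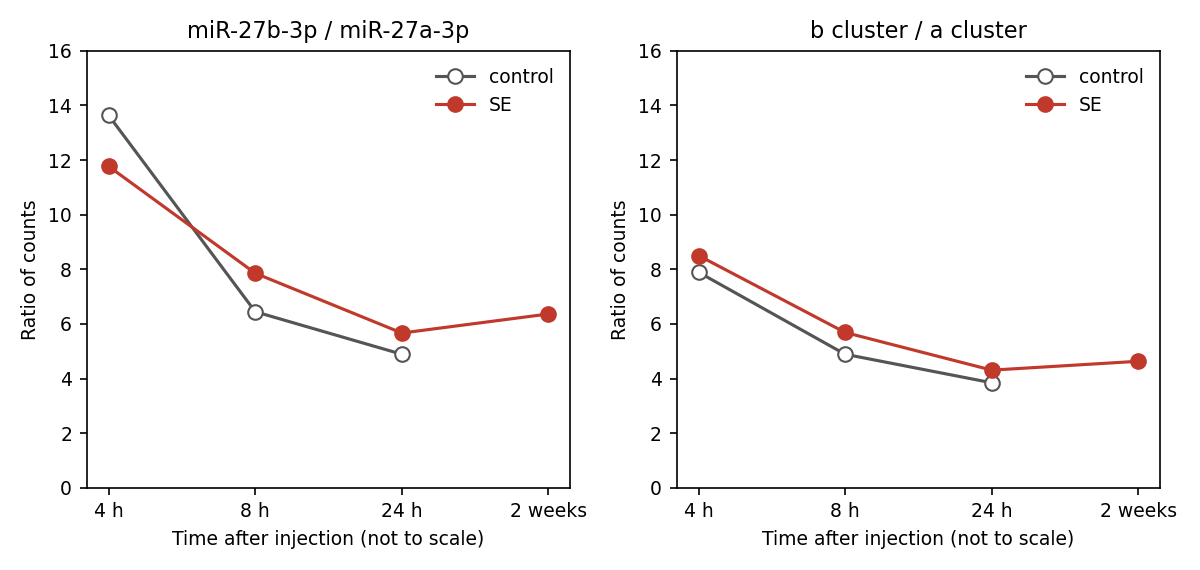
Ratio of miR-27b-3p to miR-27a-3p counts (left) and of b cluster to a cluster counts (right) within each library, against time after injection (not to scale); open points are control and red points SE libraries, 1 pool each, and lines join the libraries of a group. In both panels the ratio is highest at 4 h and lowest at 24 h in control and in SE.

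Within the a cluster, the ratio of miR-27a-3p to miR-23a-3p, neighbours on one precursor, was 2.03, 5.21 and 4.73 in the 4, 8 and 24 h controls, and 3.33, 3.24, 5.05 and 4.03 in the SE libraries of 4, 8 and 24 h and 2 weeks. The SE and control values overlapped. The ratio of miR-24-2-5p to miR-24-3p was 0.975, 1.24 and 0.208 in the controls and 0.379, 0.610, 0.738 and 0.875 in SE, so that the control libraries held both the highest and the lowest value. In all, 7 ratios between members were compared between the 3 SE and the 3 control libraries of 4 h to 24 h, and the smallest p was 0.2 in a two-sided exact permutation test, with an adjusted p of 0.9 for each of the 7. That p of 0.2 was for miR-23a-3p to miR-23b-3p in the exact permutation test, and this ratio and those of the 3p to the 5p arm of miR-27a and miR-27b rest on libraries with 0 counts, to which a pseudocount of 0.5 was added. With 3 libraries a side this exact test cannot go below a p of 0.1, and the spread it uses includes the differences between times. Taken as same-time pairs, the b to a cluster ratio was higher in SE by 0.16 on the log2 scale (3 of 3 pairs), with a p of 0.25 in an exact sign permutation test, the smallest that 3 pairs allow. For miR-27b-3p to miR-27a-3p the mean log2 ratio was 2.92 ± 0.77 (SD, n = 3) in control and 3.01 ± 0.53 (SD, n = 3) in SE, with an exact permutation p of 0.8.

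The other 3 members were scarce. miR-27a-5p, the opposite arm of miR-27a, had 67, 73 and 114 counts in the 4, 8 and 24 h controls, and 85, 0, 95 and 49 counts in the SE libraries of 4, 8 and 24 h and 2 weeks. Its level stayed under 50 CPM in every library, and it was not tested. Counts of miR-27a-3p were 15.9 to 68.0 times those of miR-27a-5p in the 6 libraries where the latter was counted.

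miR-27b-5p, the opposite arm of miR-27b, was counted in control 4 h only, with 111 counts (63.7 CPM), and had 0 counts in the other 6 libraries. With 0 counts set to a floor of 3 per library, it was 90.4-fold lower in SE 4 h than in control 4 h. The low-count value of SE 4 h was 37.6, far above that floor, so this fold is not a lower bound. miR-27b-5p was tested only because control 4 h reached 50 CPM, so the direction of its call was fixed by the filter and nothing is read from it. Its count in control 4 h was 1.09 times the low-count value of 102. By the same rule it was called between control 4 h and each of the other controls.

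miR-23b-3p, the guide arm of the b cluster's miR-23, was counted in 3 of the 4 SE libraries and in none of the controls. It had 76, 43, 0 and 72 counts in the SE libraries in order of time, or 17.8, 11.8, 0 and 23.3 CPM. Against a floor of 3 counts in the control library it was 10.4-fold higher in SE at 4 h and 30.7-fold at 2 weeks, and at 24 h both libraries were at 0. That floor lies far below the low-count values of control 4 h (102) and control 24 h (55.1), so these folds are not lower bounds. miR-23b-3p was under 50 CPM throughout and was not tested, and its counts were 2.02, 0.829 and 2.17 times the low-count value of their libraries. Its paralog miR-23a-3p had 522 to 1502 counts in every library, and how far counting can tell miR-23a-3p from miR-23b-3p was not tested.

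**Figure D4:**
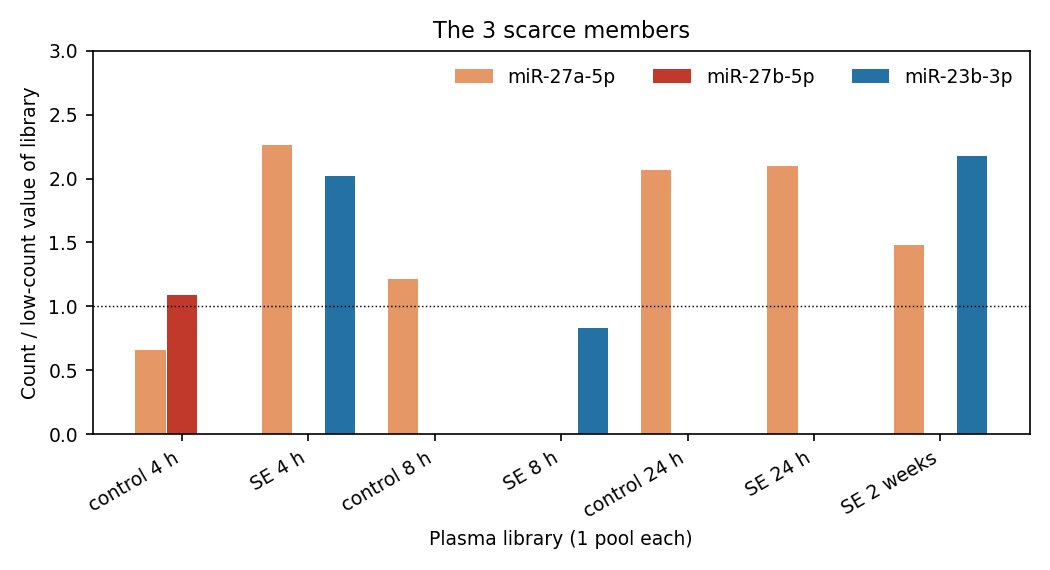
Counts of the 3 scarce members in each library, as a multiple of the library's low-count value (vertical axis, dotted line at 1); bars are single libraries with no error bar, and absent bars are counts of 0. No bar exceeds 2.26, and miR-27b-5p appears in control 4 h alone.

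Profiles over the 7 libraries were compared by the root mean square difference of centred log2 CPM as a description, between each member and the 101 other miRNAs that reached 50 CPM in all libraries. The miRNAs most like miR-27b-3p were miR-101a-3p (0.18 on the log2 scale), miR-140-3p (0.20) and miR-22-3p (0.24), followed by its family member miR-23a-3p (0.24), against a median of 0.59. miR-101a-3p had 1013, 1031 and 885 CPM in the 4, 8 and 24 h controls, and 1862, 1645, 1105 and 1071 CPM in the SE libraries of 4, 8 and 24 h and 2 weeks. For miR-23a-3p the order was miR-27b-3p (0.24), miR-146a-5p (0.25) and miR-140-3p (0.26). miR-27a-3p was most like miR-192-5p, miR-181a-5p and miR-29a-3p (all 0.24), and its seed partner miR-27b-3p came only 52nd of 101, at 0.51. miR-24-3p had no close match, its nearest being miR-151-3p (0.34), miR-126a-5p (0.34) and miR-23a-3p (0.35).

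Markers of cells that plasma could hold RNA from were read beside these levels. The 5 erythrocyte miRNAs held 67.1% to 76.1% of control and 62.6% to 76.1% of SE counts, almost all of it miR-486b-5p, with the highest shares in SE 24 h and control 4 h. Others in the list did not share this course. In control 4 h miR-144-3p had 0, miR-144-5p 1 and miR-451a 3 counts, for each its lowest of all libraries. In SE 24 h they had 930, 906 and 45 counts. SE 24 h, where miR-27b-3p had its lowest share of counts (0.459%), was thus also high in miR-486b-5p. The part of the erythrocyte miRNAs in the differences was not tested. The 4 endothelial and platelet miRNAs summed to 1654 to 3008 CPM in control and 2314 to 3001 CPM in SE. The 6 leukocyte miRNAs summed to 5642 to 11094 CPM in control and 6822 to 10784 CPM in SE. Of 3 oligodendrocyte miRNAs, 2 had a row (miR-338-3p and miR-219a-2-3p) and none reached 50 CPM. Their sum was 1.15, 0 and 7.10 CPM in the 4, 8 and 24 h controls and 8.92, 13.7, 0 and 0 CPM in SE in order of time. On this TMM scale SE 4 h and SE 8 h lay above all controls, but by library size alone SE 4 h lay below control 24 h. These sums come from few counts, 28 (control 24 h), 38 (SE 4 h) and 50 (SE 8 h) of miR-338-3p and 2 (control 4 h) of miR-219a-2-3p. The counts of SE 4 h and SE 8 h were near the low-count values of these libraries (37.6 and 51.9). The part of the oligodendrocyte miRNAs in the result was not tested. The 5 neuronal miRNAs summed to 1142 to 2273 CPM in control and 1312 to 1953 CPM in SE, with overlapping ranges, and nearly all of the sum was miR-128-3p. Among them miR-132-3p was at 0 in all 3 controls and had 46.0, 46.4, 13.6 and 0 CPM in SE in order of time (196, 169, 38 and 0 counts). The others in the list did not share this course. miR-128-3p had 1332 CPM in SE 4 h and 1181 CPM in SE 8 h, within the controls (1072 to 2273 CPM). miR-9-5p was lower in SE 4 h (31.9 CPM) than in control 4 h (70.0 CPM) and had 78.0 CPM in SE 8 h. miR-124-3p was counted in SE 24 h only (49 counts) and miR-129-5p in SE 8 h only (25 counts). The part of the neuronal miRNAs in the result was not tested. The liver miRNA miR-122-5p was at 0 in all controls and at most 17.8 CPM in SE. Of 5 muscle miRNAs listed, 2 had a row, with sums of 92.2 to 945 CPM in control and 117 to 1562 CPM in SE. In a plasma pool, RNA from more cells of a type and more RNA from each cell cannot be told apart.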

How the data were processed

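Ago2 was pulled down with an antibody from 7 plasma pools of 10 mice, and the small RNA it held was sequenced. The authors trimmed adapters, size-selected reads and aligned them by BLASTn to miRBase in Chimera, allowing 2 mismatched nucleotides, and deposited raw counts per mature miRNA (the version of Chimera is not given in the sources used here). The counts were used as deposited, with no column left out. Levels, TMM factors over 7 libraries, the exact test and the quasi-likelihood test were computed in edgeR 4.0.16 (limma 3.58.1, R 4.3.3), with DESeq2 1.42.0 as an alternative, a BCV of 0.1, a prior count of 0.125 and a pseudocount of 0.5 in ratios. The BCV, the fold and p thresholds and the 2-week control follow the study. Its legends give 50 CPM for presence in its organ enrichment, whereas here that minimum decided which miRNAs were tested. The study reported fewer changed miRNAs at every time-point than were called here. Low-count values are modes of a kernel density of log counts from 6 to 300 (bandwidth 0.15). Python 3.11.15, numpy 2.4.6, pandas 2.3.3, scipy 1.17.1 and matplotlib 3.10.9 were used, and tests were checked on data simulated at a BCV of 0.1. The quasi-likelihood fit estimated a BCV of 0.59 from the libraries up to 24 h, with time included. The simulated check therefore does not gauge false calls at the spread of these libraries. The named miRNAs are all members, the 3 most alike in profile to each member with at least 50 CPM in all libraries, and the marker lists. Totals of 2043220 to 5405357 counts limit precision, and intervals and floors of 3 counts cover counting error only. Members and lists were chosen with earlier results of these data known. Alternatives were other scalings, BCV 0.4, other filters, other controls, a prior count of 2, removal of miR-486b-5p, division by low-count values, and single libraries left out. Comparing acute SE libraries with controls of other times was chosen after seeing the data.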

Additional observations from a re-analysis of the deposited data

Results flagged for a closer look

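miR-24-3p was picked out because its called differences between SE and control lay in opposite directions at different time-points. Its log2 fold change was 0.82 at 4 h and 1.02 at 8 h, and -0.69 at 24 h. The difference between time-points was not tested, since each rests on 1 library per group, and control 24 h and control 8 h themselves differed by 1.33 on the log2 scale.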

How the results depend on the processing

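Raising the BCV to 0.4 ended the calls of miR-27b-3p at 4 h (log2 fold change 0.70) and 8 h (0.82). It left 1, 0, 0 and 0 members called at the successive time-points, against 4, 3, 2 and 1 of the 6, 5, 5 and 5 tested. Of all 189, 154, 141 and 145 miRNAs tested it left 58, 23, 19 and 8, against 127, 77, 63 and 46. The 1 member left at 4 h was miR-27b-5p, whose direction was fixed by the filter. The 4 h call of miR-27b-3p also ended with DESeq2 size factors (0.57) and 2-library TMM (0.54). Its 24 h change turned to -0.53 with library size only, and to -0.10 against the 3 controls summed. Members called also moved, given here with the called of all miRNAs tested in brackets. With division by low-count values they were 1 of 7 at 4 h (31 of 200) and 0 of 5 at 24 h (18 of 133). With summed controls they were 1 of 5 at 4 h (72 of 152) and 0 of 5 at 24 h (53 of 145). With any count accepted they were 5 of 7 at 8 h (257 of 424) and 3 of 7 at 2 weeks (238 of 420). With 50 CPM required in both libraries they were 1 of 4 at 24 h (35 of 112) and 0 of 4 at 2 weeks (21 of 117). Without miR-486b-5p they were 3 of 7 at 2 weeks (112 of 233), where more miRNAs reached 50 CPM. Among other members, summed controls turned miR-24-2-5p at 8 h (0.27), miR-27a-3p at 24 h (0.10) and 2 weeks (0.10) and miR-24-3p at 2 weeks (0.029), and miR-27a-3p at 2 weeks turned without miR-486b-5p (0.033) and with low-count values (0.19).

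Other controls changed more. At 4 h, control 24 h left 2 of 5 members called (miR-27b-3p and miR-24-2-5p, the latter at 0.90), against 90 of 154 miRNAs, and miR-27a-3p was at -0.033. In control 24 h miR-24-2-5p was under 50 CPM (41.8). Its direction against that control was thus fixed by the filter, and nothing is read from it. Against control 8 h miR-23a-3p was called at 4 h (0.96). At 8 h, miR-27b-3p was at 0.34 and not called against control 4 h, which made miR-27a-3p called (1.13). Control 24 h gave miR-24-2-5p 1.25, its direction again fixed by the filter, and miR-24-3p -0.31. At 24 h, control 4 h gave miR-27b-3p -0.45, miR-24-2-5p -0.30, miR-24-3p 0.10 and miR-27a-3p 0.82. At 24 h, control 8 h left 1 of 5 members called (miR-24-3p at 0.64), against 61 of 139 miRNAs. There miR-23a-3p was at 0.26, miR-24-2-5p at -0.12 and miR-27a-3p at 0.22. At 2 weeks, control 4 h left 2 of 6 members called (miR-27a-3p at 0.82 and miR-27b-5p), against 121 of 182 miRNAs. Of these miR-27b-5p was tested only through control 4 h, so its direction was fixed and nothing is read from it. With that control miR-27b-3p was at -0.28, miR-23a-3p at -0.16 and miR-24-3p at 0.29. Control 8 h left 2 of 5 called (miR-24-3p at 0.83 and miR-23a-3p at 0.60), against 62 of 145 miRNAs, with miR-27a-3p at 0.23. The causes were not tested. Controls of other times were tried at 4, 8 and 24 h only after seeing the data.

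Called miRNAs of all kinds numbered 127, 77, 63 and 46 of 189, 154, 141 and 145 tested at the successive time-points. With BCV 0.4 they numbered 58, 23, 19 and 8 of the same. With any count they were 310, 257, 261 and 238 of 429, 424, 412 and 420. With 50 CPM in both they were 61, 43, 35 and 21 of 121, 119, 112 and 117. Low-count values gave 31, 26, 18 and 14 of 200, 156, 133 and 138. Without miR-486b-5p library totals fell, so more miRNAs reached 50 CPM. Then 170, 160 and 112 of 276, 257 and 233 were called from 8 h on. With summed controls 72 of 152 were called at 4 h, and against control 8 h 83 of 152. Against control 4 h there were 122, 124 and 121 of 189, 179 and 182 from 8 h on. In the quasi-likelihood test the count of 0 became 3 with DESeq2's Wald test, 3 with any count and 1 with the 2-week library added, and miR-24-2-5p turned to -0.12 with library size only. The log2 fold change of miR-27b-3p stayed between 0.31 and 0.85, with edgeR or DESeq2 adjusted p between 0.21 and 0.98. Same-time libraries did not all deviate together (correlations of 0.22, 0.04 and 0.40 over 137 miRNAs at 4, 8 and 24 h), so they were not treated as pairs in the quasi-likelihood test, although the ratios of the b to the a cluster lay close together at each time. With time as a replicate block the log2 fold change of miR-27b-3p was 0.54 (edgeR adjusted p 0.33).

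With single libraries left out, the log2 difference between SE and control ran from -0.22 to 0.52 for miR-27b-3p to miR-27a-3p, from -0.39 to 0.29 for miR-27a-3p to miR-23a-3p, from -0.99 to 0.30 for miR-24-2-5p to miR-24-3p, from -0.10 to 0.45 for the b to the a cluster, and from -0.25 to 0.34 for the level of miR-24-2-5p. The sign of the first turned without control 8 h (-0.02), control 24 h (-0.22) or SE 4 h (-0.18).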
